A study of Rattus norvegicus with 21 samples.

Results

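The plasminogen activator genes Plau and Plat, the urokinase receptor gene Plaur and the protease inhibitor gene Serpine2 were followed in rat bladder carcinoma cells along a time course of the growth factor FGF1. Members were all probe sets whose single gene symbol in the array annotation was one of these 4 genes, whatever their values. This gave 4 of 10411 genes with such a probe set, and 6 of the 15923 probe sets of the array. They were 1387675_at and 1398287_at for Plau, 1371286_at and 1387269_s_at for Plaur, 1367800_at for Plat and 1372440_at for Serpine2. A probe set is a group of short array probes read as a single value, and the letter s in a probe set's name marks probes that more than 1 transcript can share.

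NBTII-FGFR1 is the rat bladder carcinoma line NBTII after transfection with FGF receptor 1, and NBTII is the epithelial line without it. Both were given FGF1 at 20 ng/ml together with heparin, and total RNA was taken at 0, 0.5, 2, 6, 24 and 48 h, the 0 h cells being the controls. NBTII-FGFR1 had 2 arrays at each time except 0.5 h, which had 1, and NBTII had 2 arrays at 2, 6, 24 and 48 h and 1 each at 0 and 0.5 h, 21 arrays in all. No culture without FGF1 later than 0 h was analysed here, so FGF1, heparin and time in culture cannot be told apart. The promoter that drives the receptor and whether the transfected line is 1 clone are not given in the sources used here. Nothing says whether replicates came from separate cultures, so p-values here measure only how far these particular arrays differ, a spread that may be technical.

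Plau encodes urokinase and Plat encodes tissue-type plasminogen activator, the serine proteases that cut plasminogen into the active protease plasmin. Plaur encodes the receptor that holds urokinase at the cell surface, and Serpine2 encodes protease nexin-1, a secreted serpin that inhibits thrombin, urokinase and plasmin. Plasmin dissolves fibrin, cleaves matrix proteins and activates several matrix metalloproteinases, and urokinase takes its name from urine, where it was found. NBTII cells are known for scattering when FGF1 is added.

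As the promoter table used here has no entry for Plat, the stretches upstream of the other members, Plau, Plaur and Serpine2, are shown. They are the 250 bases before the start site that the RefSeq promoter table of build GRCr8 uses, written 5′ to 3′ on the gene's own strand. Capitals mark matches to the AP-1 motif TGANTCA or to the ETS motif AGGAAG, searched on both strands, and the motifs do not overlap each other in these windows. The windows are chr15:3511988-3512237 on the minus strand for Plau, chr1:89181113-89181362 on the plus strand for Plaur and chr9:88637203-88637452 on the minus strand for Serpine2.
Plau: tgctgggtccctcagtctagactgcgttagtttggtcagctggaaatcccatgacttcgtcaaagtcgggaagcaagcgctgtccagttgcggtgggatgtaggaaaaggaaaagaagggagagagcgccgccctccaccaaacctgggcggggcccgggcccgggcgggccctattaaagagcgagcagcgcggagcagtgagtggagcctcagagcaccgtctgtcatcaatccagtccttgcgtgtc
Plaur: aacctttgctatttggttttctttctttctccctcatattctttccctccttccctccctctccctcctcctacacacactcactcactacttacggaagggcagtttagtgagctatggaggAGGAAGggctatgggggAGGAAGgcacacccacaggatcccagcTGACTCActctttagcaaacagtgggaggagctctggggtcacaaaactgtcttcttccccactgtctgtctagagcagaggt
Serpine2: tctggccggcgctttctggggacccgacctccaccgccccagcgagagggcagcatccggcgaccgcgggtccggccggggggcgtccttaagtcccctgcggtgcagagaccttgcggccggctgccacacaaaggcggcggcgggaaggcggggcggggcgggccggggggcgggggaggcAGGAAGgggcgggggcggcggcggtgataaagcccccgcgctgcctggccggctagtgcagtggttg

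The Plaur window held 1 AP-1 match, TGACTCA, from -83 to -77 relative to the start site, and 2 ETS matches, from -127 to -122 and from -110 to -105. The Serpine2 window held 1 ETS match, from -67 to -62, and no AP-1 match, and the Plau window held neither. Among 33469 rat promoter windows of the same length, 6.34% held the AP-1 motif and 29.5% the ETS motif. The G and C share was 60% for Plau, 51.2% for Plaur and 76.8% for Serpine2, against a median of 51.2% over all windows. A match here is a description of letters and not a tested binding site. In GRCr8 the genes lie on chromosome 15 from 3505485 to 3511987 (Plau), chromosome 1 from 89181363 to 89196308 (Plaur), chromosome 16 from 75943061 to 76022037 (Plat) and chromosome 9 from 88573138 to 88637252 (Serpine2). The last 50 bases of the Serpine2 window lie inside the gene span printed here, so its positions count from a start site further inside the gene than the end of that span, while the other windows abut their genes.

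All levels are the authors' log2 signal intensities, and all differences are log2 differences with the standard error of a limma fit over the 12 groups. A difference was called at a Benjamini-Hochberg adjusted p under 0.05 over the 15866 probe sets that are not controls. Array medians lay between 6.13 and 6.21 and lower quartiles between 4.36 and 4.54, and replicate arrays correlated at 0.988 to 0.997 across probe sets. The 27 poly-A spike probe sets averaged 6.13 to 6.64 on the 3 arrays of 0 h and 5.33 to 5.72 on the 18 later arrays, so the 0 h arrays differ from the others in these control readings. Whether this comes from the spikes or from the cell RNA beside them was not tested. Its part in the differences from 0 h was not tested either. The comparisons of 2 h with 0.5 h and of late with early times do not use the 0 h arrays. Fgfr1 itself read 4.56 to 7.58 on 10 NBTII-FGFR1 arrays, against 3.58 to 4.05 on the 10 NBTII arrays. The library labelled NBTII-FGFR1 0 h replicate 1 read 3.57, below the whole NBTII range, and NBTII-FGFR1 2 h replicate 1 correlated better with the NBTII 0.5 h array (0.990) than with its own partner (0.988). The other arrays of 2 h were also close across lines: NBTII-FGFR1 2 h replicate 2 and NBTII 2 h replicate 2 were each other's nearest arrays (0.993), nearer than their own partners (0.988 and 0.992). The titles name 2 NBTII-FGFR1 arrays of 0 h, whereas the design text describes the controls as unduplicated. The titles were followed, and every NBTII-FGFR1 difference from 0 h rests on that. NBTII-FGFR1 0 h replicate 1 and 2 h replicate 1 are called the 2 arrays that stand apart, and member calls lost without both are given beside the result. The number of probe sets called over the whole table moved by over 1.5 times without both in 7 of the 16 comparisons, and in all 16 in some fit without 1 array, so the shares of all probe sets given beside the member counts are not fixed values.

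Of 10 epithelial markers, 7 were above the array median on all 21 arrays, among them Cdh1, Epcam and Krt5, whereas Krt19 was below the lower quartile on all. The mean of the epithelial list was not level over time. It was 8.67 at 0 h, 9.23 at 2 h, 9.15 at 6 h, 7.95 at 24 h and 7.88 at 48 h in NBTII-FGFR1, and 8.45, 9.34, 9.26, 8.04 and 8.26 at those times in NBTII. No probe set carried the symbol of any of the 5 uroplakins of the urothelium alone. Of 7 fibroblast markers none was above the median and 5 were below the lower quartile on all arrays, with a mean level over the list of 3.88 to 4.15 in NBTII-FGFR1 and 4.01 to 4.20 in NBTII. Of 5 measured leukocyte markers Cd14 was above the median on all arrays while Ptprc and Cd3e were below the lower quartile, and of 3 measured endothelial markers 2 were below it throughout.

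Both activators and the receptor probe set Plaur 1387269_s_at rose early in FGF1. The activators were back near their 0 h levels a day later, whereas Serpine2 was highest at 48 h in NBTII-FGFR1. In NBTII the Serpine2 means of 48 h (7.77) and 6 h (7.65) differed by less than the SD between arrays of a group, 0.242. At 2 h, 5 of the 6 probe sets were higher than at 0 h in NBTII-FGFR1, where 5.27% of all probe sets were called higher, and 4 of 6 in NBTII, where 1.95% were. At 6 h it was 6 of 6 in NBTII-FGFR1 against 9.38% of all, and 5 of 6 in NBTII against 3.70%. At 24 h only Plaur 1387269_s_at and Serpine2 were called higher in NBTII-FGFR1 (2 of 6, against 3.57% of all) and only Plaur 1387269_s_at in NBTII (1 of 6, against 0.567%). At 48 h the same 2 probe sets were called higher in each line, against 10.5% of all in NBTII-FGFR1 and 0.580% in NBTII. The median log2 difference over all probe sets stayed between -0.06 and 0.02 in these 8 comparisons. In RNA from whole cultures, fewer cells that carry a transcript and less of it per cell cannot be told apart.

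**Figure D1:**
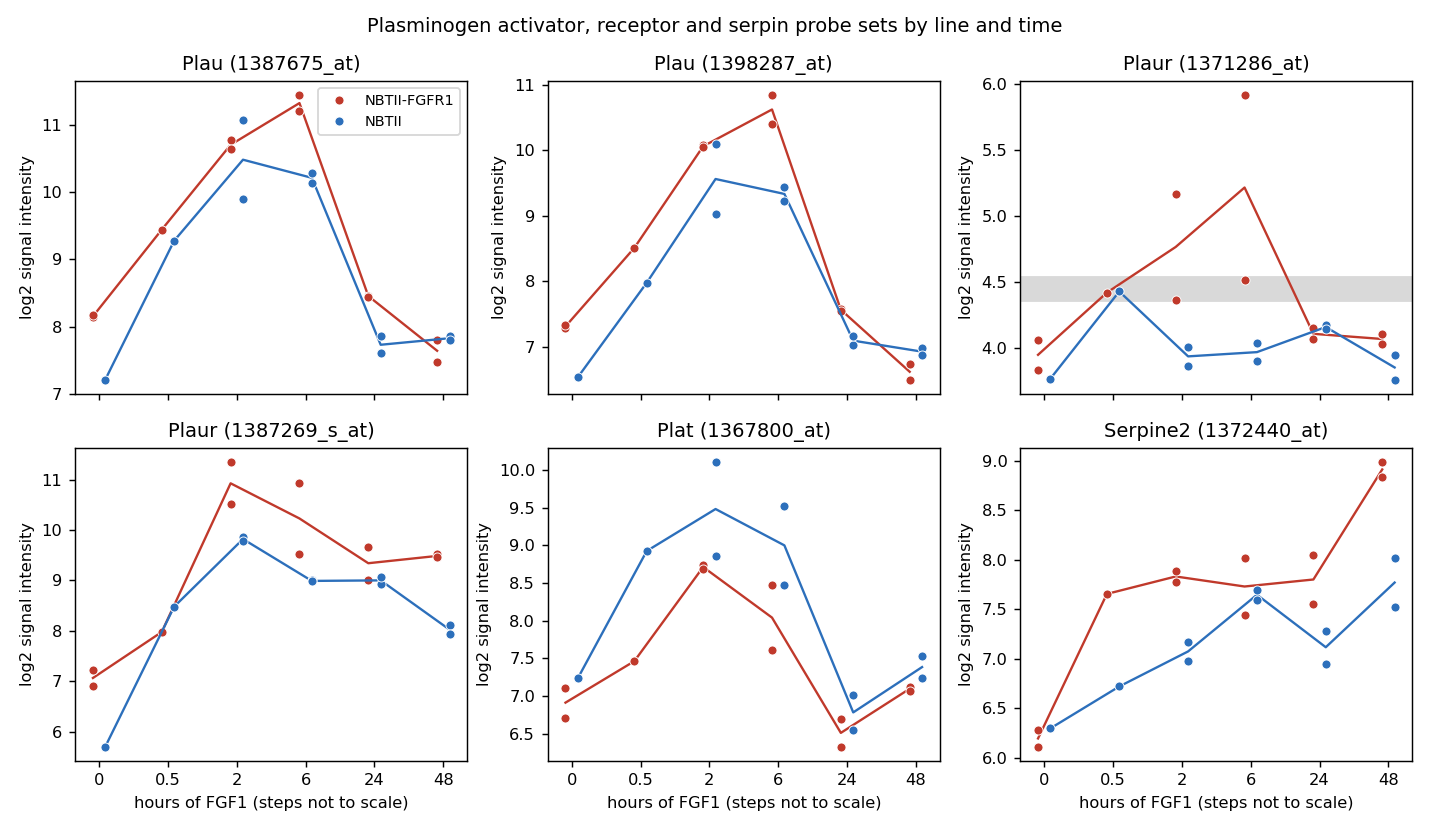
Log2 signal intensity of the 6 probe sets on each of the 21 arrays by hours of FGF1 (steps not to scale), with NBTII-FGFR1 in red and NBTII in blue. Points are arrays, lines join group means, and the grey band in the Plaur 1371286_at panel spans the lower quartiles of the 21 arrays (4.36 to 4.54). Plau peaks at 2 to 6 h in both lines, the Plat means lie lower in NBTII-FGFR1 than in NBTII from 0.5 to 6 h, and Serpine2 is highest in NBTII-FGFR1 at 48 h.

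Plau, the urokinase gene, rose and came back within a day in both lines. In NBTII-FGFR1, 1387675_at read 8.14 and 8.17 at 0 h, 9.44 at 0.5 h, 10.77 and 10.64 at 2 h, 11.21 and 11.45 at 6 h, 8.46 and 8.45 at 24 h and 7.80 and 7.48 at 48 h. In NBTII it read 7.21 at 0 h, 9.28 at 0.5 h, 11.07 and 9.90 at 2 h, 10.29 and 10.14 at 6 h, 7.86 and 7.60 at 24 h and 7.86 and 7.79 at 48 h. In each line the 4 arrays of 2 and 6 h lay above every other array of that line, with no overlap. The 2 Plau probe sets moved together over the 21 arrays (Pearson r 0.99, a description over arrays that share the time course). In NBTII-FGFR1, 1398287_at read 7.28 and 7.33 at 0 h, 8.51 at 0.5 h, 10.08 and 10.04 at 2 h, 10.41 and 10.84 at 6 h, 7.58 and 7.55 at 24 h and 6.74 and 6.50 at 48 h. In NBTII it read 6.53 at 0 h, 7.98 at 0.5 h, 10.10 and 9.02 at 2 h, 9.44 and 9.22 at 6 h, 7.03 and 7.16 at 24 h and 6.97 and 6.87 at 48 h. Here too the 2 and 6 h arrays of each line lay above all its others.

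In NBTII-FGFR1, Plau 1387675_at was higher by 2.56 ± 0.25 at 2 h than at 0 h (adjusted p = 2.86e-05) and by 3.18 ± 0.25 at 6 h (adjusted p = 2.39e-06), a 9.05-fold difference in signal. The other probe set, 1398287_at, was higher by 2.75 ± 0.24 at 2 h (adjusted p = 9.78e-06) and by 3.31 ± 0.24 at 6 h (adjusted p = 1.79e-06). In NBTII the 2 h differences were 3.28 ± 0.31 for 1387675_at (adjusted p = 7.51e-05) and 3.03 ± 0.30 for 1398287_at (adjusted p = 9.04e-05). Those at 6 h in NBTII were 3.01 ± 0.31 (adjusted p = 0.000116) and 2.80 ± 0.30 (adjusted p = 0.000132). The NBTII values rest on the single NBTII 0 h array, which borrows its spread from groups with 2 arrays.

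Neither Plau probe set was called against 0 h at 24 or 48 h in the limma fit over the 12 groups. At 48 h in NBTII-FGFR1, 1398287_at was called lower in 4 of 7 other settings of the fit (adjusted p down to 0.0033). There 1387675_at was called lower in 2 of them (adjusted p down to 0.0188). In NBTII-FGFR1 at 24 h the differences were 0.30 for 1387675_at (95% interval -0.24 to 0.84) and 0.26 for 1398287_at (-0.26 to 0.77). At 48 h in NBTII-FGFR1 they were -0.51 (-1.05 to 0.03, adjusted p = 0.183) and -0.69 (-1.21 to -0.18, adjusted p = 0.0547), and both 48 h arrays lay below both 0 h arrays. In NBTII they were 0.52 (-0.14 to 1.18) and 0.56 (-0.07 to 1.19) at 24 h, and 0.62 (-0.04 to 1.28) and 0.39 (-0.24 to 1.02) at 48 h. For each probe set both NBTII-FGFR1 arrays of 24 h lay above both 0 h arrays of that line. The NBTII arrays of 24 and 48 h lay above the single 0 h array of NBTII. The lines thus lay on opposite sides of their 0 h arrays at 48 h only. These differences were not called in that fit, and those of NBTII rest on 1 array of 0 h.

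Ordered by group mean, Plau 1387675_at ran from NBTII-FGFR1 6 h at the top through NBTII-FGFR1 2 h, NBTII 2 h and NBTII 6 h, then the 0.5 h arrays of NBTII-FGFR1 and NBTII, then NBTII-FGFR1 24 h, NBTII-FGFR1 0 h, NBTII 48 h, NBTII 24 h and NBTII-FGFR1 48 h, with NBTII 0 h lowest. The SD between arrays of a group was 0.302 on the log2 scale (9 degrees of freedom), and 5 of the 11 neighbouring pairs in this order differed by less than that. These were NBTII-FGFR1 2 h with NBTII 2 h, NBTII 2 h with NBTII 6 h, both 0.5 h groups, NBTII 48 h with NBTII 24 h, and NBTII 24 h with NBTII-FGFR1 48 h. For 1398287_at it was likewise 5 of 11 pairs at an SD of 0.288.

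Plat, the tissue-type activator, rose over the same hours but by less, and its replicates were further apart. In NBTII-FGFR1 it read 7.11 and 6.71 at 0 h, 7.46 at 0.5 h, 8.74 and 8.68 at 2 h, 8.47 and 7.61 at 6 h, 6.33 and 6.69 at 24 h and 7.12 and 7.07 at 48 h. In NBTII it read 7.24 at 0 h, 8.92 at 0.5 h, 10.10 and 8.86 at 2 h, 9.52 and 8.48 at 6 h, 7.01 and 6.55 at 24 h and 7.53 and 7.24 at 48 h. The arrays of 2 and 6 h lay above those of 0, 24 and 48 h in each line, while the replicates of NBTII at 2 h and 6 h differed by over 1 log2 unit. The order of its groups put NBTII 2 h highest and NBTII-FGFR1 24 h lowest, and 8 of the 11 neighbouring pairs differed by less than the SD between arrays of a group, 0.470.

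Plat was higher by 1.80 ± 0.38 at 2 h than at 0 h in NBTII-FGFR1 (adjusted p = 0.00819) and by 2.25 ± 0.46 in NBTII (adjusted p = 0.0164). At 6 h it was higher by 1.13 ± 0.38 in NBTII-FGFR1 (adjusted p = 0.0458) and by 1.76 ± 0.46 in NBTII (adjusted p = 0.0368). Without the 2 arrays that stand apart, the NBTII-FGFR1 differences were 1.97 at 2 h (adjusted p = 0.0689) and 1.33 at 6 h (adjusted p = 0.0857), and neither was called. The 6 h call in NBTII-FGFR1 was lost in 11 of 18 fits with an array removed, reaching 0.70 (adjusted p = 0.315) without NBTII-FGFR1 6 h replicate 1. That in NBTII was lost in 5 of 18, with 1.24 (adjusted p = 0.240) without NBTII 6 h replicate 1. The 2 h call was lost without NBTII-FGFR1 0 h replicate 2 in NBTII-FGFR1 (1.60, adjusted p = 0.0685) and without NBTII 2 h replicate 1 in NBTII (1.63, adjusted p = 0.0941).

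At the late times Plat was not called against 0 h. The differences were -0.40 (95% interval -1.21 to 0.41) at 24 h and 0.18 (-0.62 to 0.99) at 48 h in NBTII-FGFR1. They were -0.46 (-1.45 to 0.535) at 24 h and 0.15 (-0.84 to 1.14) at 48 h in NBTII. These intervals take in changes of about 1 log2 unit in at least 1 direction, so an equal level was not shown.

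For Plaur, the urokinase receptor gene, 1387269_s_at had the largest log2 difference of the 6 probe sets at 2 h in both lines. This probe set did not return to its 0 h level. In NBTII-FGFR1, 1387269_s_at read 6.91 and 7.22 at 0 h, 7.98 at 0.5 h, 10.51 and 11.35 at 2 h, 9.52 and 10.94 at 6 h, 9.02 and 9.67 at 24 h and 9.52 and 9.46 at 48 h. In NBTII it read 5.70 at 0 h, 8.48 at 0.5 h, 9.87 and 9.78 at 2 h, 9.003 and 8.98 at 6 h, 8.93 and 9.08 at 24 h and 8.11 and 7.94 at 48 h. Every array of 2 h or later lay above the 0 h arrays of its line. The order of groups put NBTII-FGFR1 2 h highest and NBTII 0 h lowest, and 6 of the 11 neighbouring pairs differed by less than the SD between arrays, 0.428.

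In NBTII-FGFR1 Plaur 1387269_s_at was higher than at 0 h by 3.87 ± 0.35 at 2 h (adjusted p = 1.09e-05), a 14.6-fold difference in signal, and by 3.17 ± 0.35 at 6 h (adjusted p = 3.06e-05). The difference was 2.28 ± 0.35 at 24 h (adjusted p = 0.00212) and 2.42 ± 0.35 at 48 h (adjusted p = 0.000179). In NBTII it was 4.12 ± 0.42 at 2 h (adjusted p = 0.000137) and 3.29 ± 0.42 at 6 h (adjusted p = 0.000456). At 24 h in NBTII it was 3.30 ± 0.42 (adjusted p = 0.00274), and at 48 h 2.32 ± 0.42 (adjusted p = 0.0198). The 48 h call in NBTII was lost without either NBTII 48 h array, with an adjusted p of up to 0.107.

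The other Plaur probe set, 1371286_at, read near the low end of the arrays and gave a different picture. It read 3.83 and 4.06 at 0 h, 4.42 at 0.5 h, 4.36 and 5.17 at 2 h, 4.52 and 5.91 at 6 h, 4.07 and 4.15 at 24 h and 4.10 and 4.03 at 48 h in NBTII-FGFR1. In NBTII it stayed between 3.76 and 4.43 on all 10 arrays. Only NBTII-FGFR1 2 h replicate 2 and 6 h replicate 2 rose clear of the lower quartiles of the arrays, and 10 of the 11 neighbouring pairs of groups differed by less than the SD of 0.390. The difference from 0 h in NBTII-FGFR1 was 1.27 ± 0.32 at 6 h (adjusted p = 0.0101) and 0.57 (adjusted p = 0.140) without NBTII-FGFR1 6 h replicate 2, and the call was also lost without NBTII-FGFR1 0 h replicate 1. At 2 h it was 0.82 (95% interval 0.138 to 1.495, adjusted p = 0.131), and it was not called at any time in NBTII. Over the 21 arrays the 2 Plaur probe sets correlated at a Pearson r of 0.61.

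Serpine2, the protease nexin-1 gene, was at its highest in NBTII-FGFR1 when the activators had come down. In NBTII-FGFR1 it read 6.11 and 6.28 at 0 h, 7.66 at 0.5 h, 7.77 and 7.89 at 2 h, 8.02 and 7.44 at 6 h, 7.56 and 8.05 at 24 h and 8.84 and 8.99 at 48 h. In NBTII it read 6.30 at 0 h, 6.72 at 0.5 h, 6.98 and 7.17 at 2 h, 7.70 and 7.60 at 6 h, 6.95 and 7.29 at 24 h and 7.52 and 8.02 at 48 h. Every array after 0 h lay above the 0 h arrays of both lines, and both NBTII-FGFR1 48 h arrays lay above all 19 others. In the order of groups NBTII-FGFR1 48 h was highest and NBTII-FGFR1 0 h lowest, and the 6 groups from NBTII-FGFR1 2 h down to NBTII 6 h stood so close that each neighbouring pair differed by less than the SD between arrays, 0.242.

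In NBTII-FGFR1 Serpine2 was higher than at 0 h by 1.64 ± 0.21 at 2 h (adjusted p = 0.000225), 1.53 ± 0.21 at 6 h (adjusted p = 0.000144), 1.61 ± 0.21 at 24 h (adjusted p = 0.000599) and 2.72 ± 0.21 at 48 h (adjusted p = 1.70e-06). The last is a 6.58-fold difference in signal. In NBTII it was higher by 1.35 ± 0.26 at 6 h (adjusted p = 0.00593) and by 1.47 ± 0.26 at 48 h (adjusted p = 0.0151). The differences of 0.78 at 2 h (95% interval 0.23 to 1.32, adjusted p = 0.128) and 0.82 at 24 h (0.27 to 1.36, adjusted p = 0.186) in NBTII were not called. Without NBTII 48 h replicate 2 the 48 h difference in NBTII was 1.22 (adjusted p = 0.123).

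**Figure D2:**
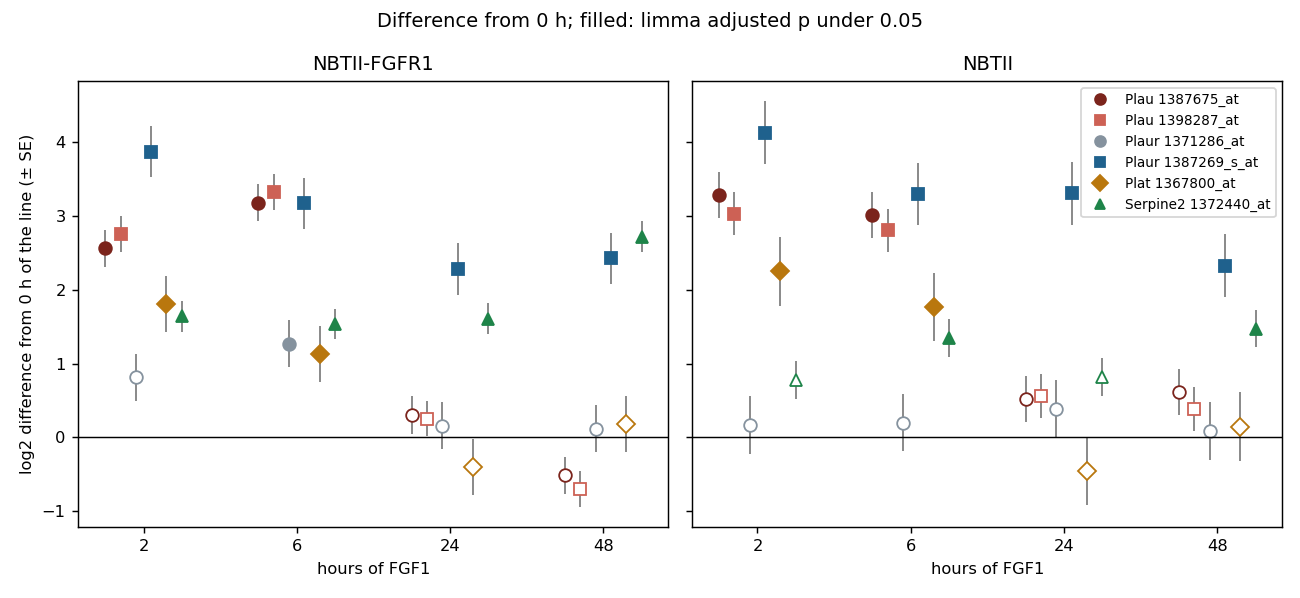
Log2 difference from the 0 h arrays of the same line at 2, 6, 24 and 48 h, NBTII-FGFR1 on the left and NBTII on the right, with bars of 1 standard error of the limma fit. Filled symbols passed an adjusted p of 0.05 and open symbols did not. Plau and Plat return towards 0 by 24 h in both lines, while Plaur 1387269_s_at is called higher at all 4 times in both.

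The earliest step was tested over both lines together, as each had 1 array at 0.5 h. From 0 to 0.5 h, 4 of the 6 probe sets were called higher, against 1.68% of all probe sets. The count over the whole table in either direction was 349, or 2.20%, and 664 without NBTII-FGFR1 2 h replicate 1. Plaur 1387269_s_at was higher by 1.85 ± 0.32 (adjusted p = 0.00634), Plau by 1.68 ± 0.24 for 1387675_at (adjusted p = 0.00121) and by 1.32 ± 0.23 for 1398287_at (adjusted p = 0.00530), and Serpine2 by 0.94 ± 0.19 (adjusted p = 0.0200). Without the 2 arrays that stand apart the Serpine2 difference was 0.90 (adjusted p = 0.0518). For Plaur 1387269_s_at and Serpine2 these averages cover unequal steps in the lines. Plaur 1387269_s_at went from a mean of 7.06 to 7.98 in NBTII-FGFR1 and from 5.70 to 8.48 in NBTII. Serpine2 went from a mean of 6.20 to 7.66 in NBTII-FGFR1 and from 6.30 to 6.72 in NBTII. Plat differed by 1.12 (95% interval 0.36 to 1.88, adjusted p = 0.129), with 0.5 h levels of 7.46 in NBTII-FGFR1 and 8.92 in NBTII.

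From 0.5 to 2 h, which leaves out the 0 h arrays, 3 of the 6 were called higher, against 1.24% of all. The whole table had 344 calls in either direction, or 2.17%, against 941 without NBTII-FGFR1 2 h replicate 1 and 858 without both arrays that stand apart. The members called were Plaur 1387269_s_at with 2.15 ± 0.30 (adjusted p = 0.00146) and Plau with 1.24 ± 0.22 for 1387675_at (adjusted p = 0.00840) and 1.57 ± 0.21 for 1398287_at (adjusted p = 0.00107). The other Plaur probe set, 1371286_at, was not called in either step, with 0.57 (95% interval -0.07 to 1.20, adjusted p = 0.380) from 0 to 0.5 h and -0.07 (-0.66 to 0.515, adjusted p = 0.975) from 0.5 to 2 h. Plat differed by 0.90 (95% interval 0.20 to 1.60, adjusted p = 0.219) and Serpine2 by 0.27 (-0.12 to 0.65, adjusted p = 0.662), neither called. In a fit to only the arrays compared, which leaves few degrees of freedom, none of the 6 was called in this step.

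Late times were set against early ones as the mean of 24 and 48 h against the mean of 2 and 6 h, 4 arrays against 4. In NBTII-FGFR1 5 of the 6 probe sets were lower late, against 7.48% of all, and Serpine2 was higher late, where 9.69% of all were. In NBTII 4 of the 6 were lower late, against 5.82% of all, and none was higher, where 6.09% of all were. The fall of Plau in NBTII-FGFR1 was -2.97 ± 0.18 for 1387675_at (adjusted p = 1.97e-07) and -3.25 ± 0.17 for 1398287_at (adjusted p = 4.99e-08). In NBTII it was -2.57 ± 0.18 and -2.44 ± 0.17, each with an adjusted p of 1.04e-06. Its late and early arrays did not overlap in either line. The mean of the epithelial list was also lower late than early in both lines, with no overlap of arrays (7.79 to 8.11 late and 9.05 to 9.29 early in NBTII-FGFR1, 7.87 to 8.44 late and 9.24 to 9.41 early in NBTII), and its part in the result was not tested.

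Plat was lower late by 1.57 on the log2 scale in NBTII-FGFR1 (-1.57 ± 0.27, adjusted p = 0.000965) and by more in NBTII (-2.16 ± 0.27, adjusted p = 0.000120). Plaur 1387269_s_at was lower by a smaller step, -1.17 ± 0.24 in NBTII-FGFR1 (adjusted p = 0.00421) and -0.89 ± 0.24 in NBTII (adjusted p = 0.0266), with late and early arrays that overlapped in both lines. The NBTII call of this probe set was lost in 8 of 18 fits with an array removed, at an adjusted p of up to 0.0899 without NBTII 48 h replicate 2. Plaur 1371286_at was lower late in NBTII-FGFR1 (-0.90 ± 0.22, adjusted p = 0.0122). Serpine2 was higher late in NBTII-FGFR1 by 0.58 ± 0.15 (adjusted p = 0.0143), a call lost in 3 of 18 fits, with 0.45 (adjusted p = 0.0769) without NBTII-FGFR1 24 h replicate 2. Its late (7.56 to 8.99) and early (7.44 to 8.02) arrays overlapped there. The 24 h mean (7.80) was level with those of 2 h (7.83) and 6 h (7.73), and only that of 48 h (8.91) stood higher. In NBTII Serpine2 differed by 0.08 (95% interval -0.23 to 0.40).

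NBTII-FGFR1 was set against NBTII at 0 h, early (2 and 6 h) and late (24 and 48 h). At 0 h, with 2 arrays against 1, none of the 6 probe sets was called by limma, where 73 of all probe sets (0.460%) were called in either direction and 206 without both arrays that stand apart, and 3 had an unadjusted p under 0.05. Over the 25 other fits tried, 0 or 1 was called. Plau stood at 8.14 and 8.17 in NBTII-FGFR1, against 7.21 in NBTII, for 1387675_at, a difference of 0.94 (95% interval 0.28 to 1.60, adjusted p = 0.249). Plaur 1387269_s_at stood at 6.91 and 7.22 in NBTII-FGFR1, against 5.70 in NBTII, a difference of 1.36 (0.46 to 2.27, adjusted p = 0.218). The library labelled NBTII-FGFR1 0 h replicate 1, with its low Fgfr1 reading, carried these levels as its partner did.

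Early in FGF1, 3 of the 6 were higher in NBTII-FGFR1 than in NBTII, against 1.90% of all probe sets. Plau 1398287_at differed by 0.90 ± 0.17 (adjusted p = 0.0106), Plaur 1371286_at by 1.04 ± 0.22 (adjusted p = 0.0200) and Plaur 1387269_s_at by 1.17 ± 0.24 (adjusted p = 0.0162). At 0 h these probe sets differed by 0.77, 0.18 and 1.36 in that order, none called. Whether the change from 0 h differed between the lines was not tested. The arrays of the lines overlapped for Plau 1398287_at (10.04 to 10.84 in NBTII-FGFR1, 9.02 to 10.10 in NBTII) and for Plaur 1387269_s_at (9.52 to 11.35 in NBTII-FGFR1, 8.98 to 9.87 in NBTII). For Plaur 1371286_at they did not (4.36 to 5.91 in NBTII-FGFR1, 3.86 to 4.04 in NBTII), at levels around the lower quartile. Plau 1387675_at differed by 0.67 (95% interval 0.29 to 1.05, adjusted p = 0.0529), just short of a call. Plat went the other way, with -0.86 (-1.44 to -0.29, adjusted p = 0.0944), and Serpine2 differed by 0.42 (0.105 to 0.735, adjusted p = 0.139). None of the 6 was called when only the arrays compared were fitted, and leaving out NBTII 6 h replicate 1 left 1 call.

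Late in FGF1, Serpine2 and Plaur 1387269_s_at were higher in NBTII-FGFR1 than in NBTII, 2 of 6 against 6.27% of all. Serpine2 differed by 0.91 ± 0.15 (adjusted p = 0.00168), a 1.88-fold difference in signal, and stayed called in all 18 fits with an array removed. Over both times together the Serpine2 arrays of the lines overlapped (7.56 to 8.99 in NBTII-FGFR1, 6.95 to 8.02 in NBTII). Within 24 h and within 48 h they did not. Plaur 1387269_s_at differed by 0.90 ± 0.24 (adjusted p = 0.0277) and lost its call in 7 of 18, with 0.74 (adjusted p = 0.126) without NBTII-FGFR1 24 h replicate 2. Its arrays overlapped, with 9.02 to 9.67 in NBTII-FGFR1 and 7.94 to 9.08 in NBTII. Plau differed by 0.27 (95% interval -0.11 to 0.65) and 0.08 (-0.28 to 0.45), and Plat by -0.28 (-0.85 to 0.29), none of them called.

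**Figure D3:**
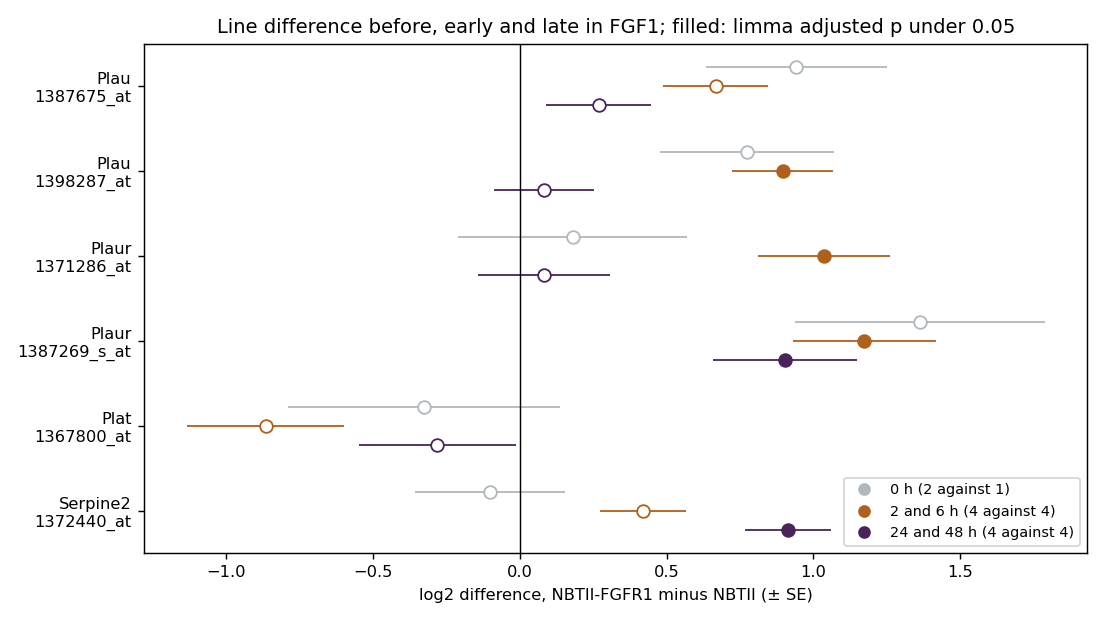
Log2 difference NBTII-FGFR1 minus NBTII for each probe set at 0 h (2 arrays against 1), at 2 and 6 h (4 against 4) and at 24 and 48 h (4 against 4), with bars of 1 standard error. Filled symbols passed a limma adjusted p of 0.05. The Plat differences lie below 0 at all 3 stages without passing the test, and Serpine2 goes from -0.10 at 0 h to 0.42 early and 0.91 late.

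Whether the late minus early change itself differed between the lines was tested as an interaction. No member was called by limma (0 of 6, against 26 of all probe sets, 0.164%, and 5 to 228 in fits without 1 array), 3 had an unadjusted p under 0.05, and the other fits called 0 or 1. The change in NBTII-FGFR1 minus that in NBTII was -0.81 (95% interval -1.33 to -0.30, adjusted p = 0.208) for Plau 1398287_at, -0.40 (-0.94 to 0.14, adjusted p = 0.643) for Plau 1387675_at and 0.49 (0.05 to 0.94, adjusted p = 0.423) for Serpine2. For Plaur 1371286_at it was -0.96 (-1.63 to -0.28, adjusted p = 0.268). It was 0.58 (-0.22 to 1.39) for Plat and -0.27 (-1.01 to 0.47) for Plaur 1387269_s_at. A rise of Serpine2 from early to late that passed the test in NBTII-FGFR1 and not in NBTII is therefore not shown to differ between the lines.

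The members fell into different patterns over the 21 arrays, described here by Pearson r with no test, since arrays share times, lines and replicates. Plau 1387675_at correlated with Plat at 0.76 and with Serpine2 at 0.07, and Plat with Serpine2 at -0.03. Plaur 1387269_s_at correlated with Plau 1387675_at at 0.64, with Serpine2 at 0.56 and with Plat at 0.38. Over the 18 arrays after 0 h, r was -0.28 for Plau 1387675_at with Serpine2 and 0.12 for Plaur 1387269_s_at with Serpine2.

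The genes most like each member were taken as the 3 with the highest Pearson r over the 21 arrays among 765 probe sets with an SD of at least 0.5. For Plau 1387675_at they were Lypd3 (0.94), a surface protein with a lipid anchor, Itpkc (0.93), an inositol trisphosphate kinase, and Gja4 (0.92), a gap junction connexin. For Plau 1398287_at they were the 14-3-3 protein gene Sfn (0.93), Gja4 (0.93) and Itpkc (0.93). Both Plau probe sets thus had Gja4 and Itpkc among their nearest 3.

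The nearest to Plat were Ctsc (0.95), which encodes the lysosomal protease cathepsin C, the tight junction gene Cldn4 (0.87) and Fgfbp1 (0.87), which encodes a secreted carrier of FGFs. Plaur 1387269_s_at was nearest to Pvr (0.92), the poliovirus receptor gene, to Txnrd1 (0.91), a thioredoxin reductase, and to Fosl1 (0.90), which encodes a subunit of AP-1. Serpine2 was nearest to Hpse (0.90), the heparanase gene, to Ypel5 (0.88) and to Tcn2 (0.88), which encodes a vitamin B12 carrier. For Plaur 1371286_at the nearest were Ptges (0.88), Usp2 (0.83) and Grip2 (0.83), but within NBTII alone these values were -0.09, 0.26 and 0.18. So within NBTII that probe set did not run along with these genes as it did over all 21 arrays.

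Around the members, a list of 66 genes of the plasminogen system was read: other inhibitors, plasminogen and its receptors, clearance receptors, partners of the urokinase receptor, proteases upstream and downstream of plasmin, and the clotting side. Of these 50 had a probe set with that single symbol. In NBTII-FGFR1, 9 rose and 0 fell at 2 h, 8 rose and 4 fell at 6 h, 4 rose and 3 fell at 24 h, and 9 rose and 5 fell at 48 h. In NBTII, 3 rose and 1 fell at 2 h, 8 rose and 2 fell at 6 h, 3 rose at 24 h and 2 rose at 48 h. The median difference of the list lay between -0.0011 and 0.13, against -0.06 to 0.02 for all probe sets. In NBTII-FGFR1 the listed genes called made up 18%, 24%, 14% and 28% at 2, 6, 24 and 48 h, where 9.35%, 21.3%, 6.30% and 21.4% of all probe sets were called. In NBTII they made up 8%, 20%, 6% and 4%, where 2.94%, 5.90%, 0.939% and 0.908% of all were.

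Plasminogen itself, Plg, was below the lower quartile on all 21 arrays (3.85 to 4.38). The plasminogen-binding pair Anxa2 (13.32 to 13.80) and S100a10 (12.01 to 12.74) was above the median on all of them, and so was the urokinase inhibitor gene Serpinb2 (9.65 to 12.50). These 4 genes were picked from the list for their roles after their values were seen. Of the 50 measured genes, 17 were above the median and 15 below the lower quartile on all arrays.

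Mmp3, Mmp9 and Mmp13, 3 of the matrix metalloproteinase genes of the list, were called with the differences below. Mmp13, a collagenase gene, read 4.08 and 4.57 at 0 h, 6.55 at 0.5 h, 10.10 and 8.24 at 2 h, 11.31 and 10.14 at 6 h, 10.67 and 11.34 at 24 h and 12.37 and 12.22 at 48 h in NBTII-FGFR1. In NBTII, Mmp13 read 4.21 at 0 h, 6.13 at 0.5 h, 8.99 and 7.64 at 2 h, 9.39 and 9.32 at 6 h, 8.30 and 8.70 at 24 h and 7.69 and 7.85 at 48 h. Every Mmp13 array after 0 h lay above all 0 h arrays, and its difference from 0 h at 48 h was 7.97 ± 0.52 in NBTII-FGFR1 (adjusted p = 6.60e-07) and 3.55 ± 0.63 in NBTII (adjusted p = 0.0170). Mmp3, the stromelysin gene, differed by 6.96 ± 0.44 at 48 h in NBTII-FGFR1 (adjusted p = 6.60e-07). Mmp9, a gelatinase gene, differed by 4.88 ± 0.29 at 6 h in NBTII-FGFR1 (adjusted p = 3.97e-07). The 0 h levels of Mmp3 (3.57 to 3.90) and Mmp9 (3.66 to 3.73) were below the lower quartile of every array.

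F3, which encodes tissue factor and so starts clotting, followed the early course. It was higher than at 0 h by 2.88 ± 0.29 at 2 h in NBTII-FGFR1 (adjusted p = 3.10e-05) and by 3.84 ± 0.35 in NBTII (adjusted p = 6.61e-05). Late against early, F3 differed by -1.53 ± 0.20 in NBTII-FGFR1 (adjusted p = 0.000141) and by -2.16 ± 0.20 in NBTII (adjusted p = 1.48e-05), as Plau and Plat were lower late too. F2rl1, a receptor that trypsin-like proteases cleave and activate, rose by 0.76 ± 0.11 from 0 to 0.5 h over both lines (adjusted p = 0.00191), with Lrp1, a clearance receptor for protease and serpin complexes (0.85 ± 0.14, adjusted p = 0.00364), and Igf2r (0.77 ± 0.14, adjusted p = 0.00969). From 0 to 0.5 h 4 of the 50 rose and 1 fell (10%, where 2.20% of all probe sets were called). From 0.5 to 2 h 4 rose (8%, where 2.17% of all were called), led by F3 (2.34 ± 0.25, adjusted p = 0.000460), Mmp9 and Mmp3. Egfr, the epidermal growth factor receptor gene, differed from 0 h by -1.61 ± 0.26 at 24 h and by -2.33 ± 0.26 at 48 h in NBTII-FGFR1 (adjusted p = 0.00338 at 24 h and 2.80e-05 at 48 h).

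**Figure D4:**
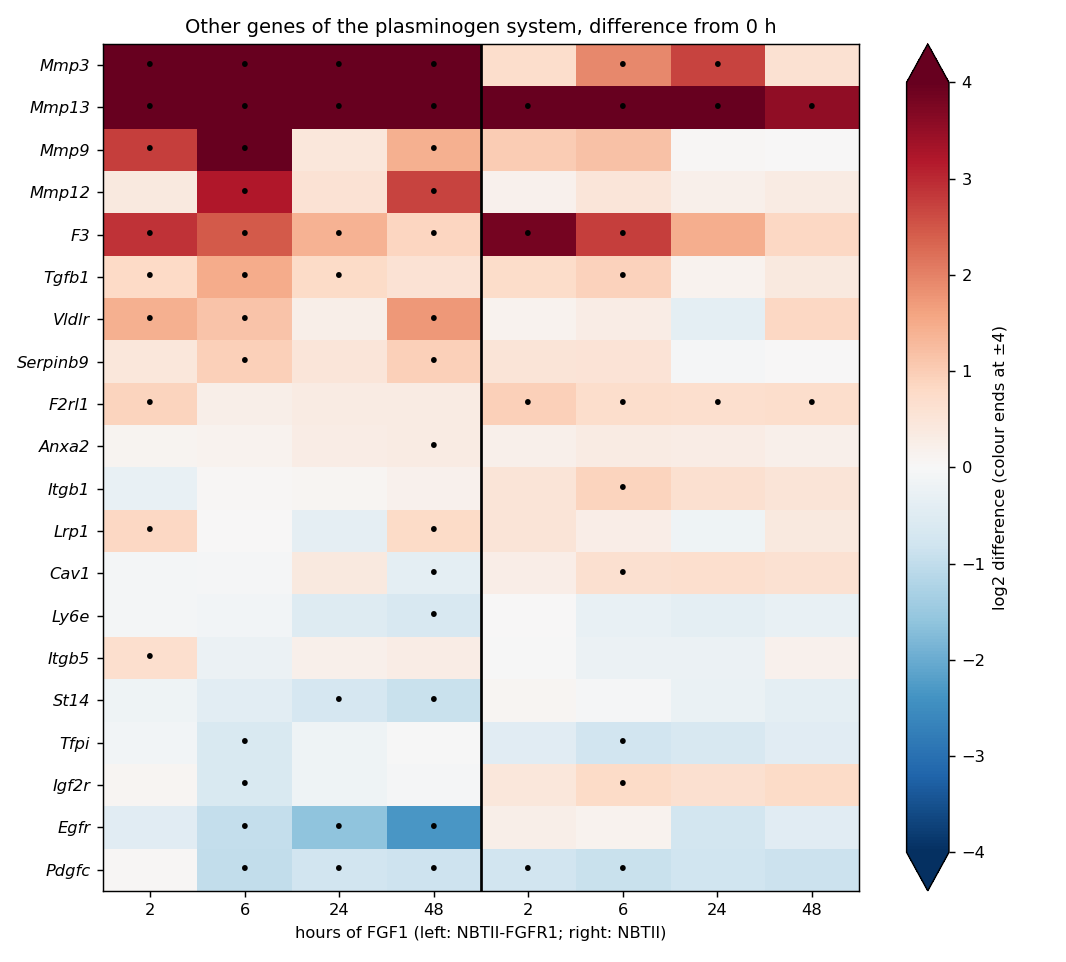
Log2 difference from 0 h at 2, 6, 24 and 48 h in NBTII-FGFR1 (left) and NBTII (right) for 20 of the 50 measured genes of the plasminogen system list, those called in at least 1 of these 8 comparisons. Colour gives the difference, its scale ends at ±4, and dots mark a limma adjusted p under 0.05. Mmp3 and Mmp13 are dark red at every time in NBTII-FGFR1, while Egfr is marked as lower from 6 h on.

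Late against early, 2 of the 50 rose and 8 fell in NBTII-FGFR1, and 0 rose and 6 fell in NBTII. The listed genes called made up 20% in NBTII-FGFR1, where 17.2% of all probe sets were called, and 12% in NBTII, where 11.9% were, so the shares are close. The leading ones in NBTII-FGFR1 were Mmp9 (-2.89 ± 0.20), F3 and Egfr (-1.26 ± 0.19), and in NBTII they were F3, Serpinb2 (-1.30 ± 0.23), the gene of the urokinase inhibitor PAI-2, and Mmp9 (-1.04 ± 0.20). Between the lines, Igf2r was the only gene of the list called at 0 h (2%, where 0.460% of all probe sets were called). It was higher in NBTII-FGFR1 by 0.92 ± 0.19 (adjusted p = 0.0450). That rests on the single NBTII 0 h array (8.22, against 9.17 and 9.12 in NBTII-FGFR1). The rise of Igf2r from 0 to 0.5 h over both lines uses the same NBTII array. Early in FGF1 3 were higher in NBTII-FGFR1 and none lower (6%, where 3.70% of all probe sets were called): Mmp9 (2.69 ± 0.20), Mmp3 (3.78 ± 0.31) and Mmp12 (1.52 ± 0.22). Late in FGF1 5 were higher and 3 lower (16%, where 11.4% of all were called), led by Mmp3 (4.96 ± 0.31), Mmp13 (3.52 ± 0.37) and Mmp12 (1.42 ± 0.22). In the interaction Mmp9 was the only gene of the list called (2%, where 0.164% of all were called), with -1.84 ± 0.29 (adjusted p = 0.0231). With all probe sets of a gene averaged, no gene of the list was called at 0 h between the lines or in the interaction.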

How the data were processed

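The authors' deposited values are log2 intensities of Affymetrix arrays, 1 per probe set and array, which RMA produced, according to the submitters' processing notes, and the sources used here do not state its version. RMA evens out the arrays' overall distributions, so a change in total RNA per cell would not be seen. Values were used as deposited. Symbols came from the array annotation, where 12783 probe sets had 1 symbol, 312 several and 2771 none. A linear model over 12 groups was fitted with limma 3.58.1 (R 4.3.3) to the 15866 probe sets that are not controls, with 9 residual and 5.68 prior degrees of freedom, and p-values were Benjamini-Hochberg adjusted within each of 16 comparisons. Groups of 1 array borrow their spread from the 9 groups of 2, and the number of arrays limits the precision. The scripts were tested on simulated data. A gene of the list was represented by 1 probe set, and the text names at most the 3 listed genes with the smallest p among those called per comparison, besides the genes said to be picked later. Alternatives were 7 other settings and 18 fits without 1 array. The members, lists and tests were chosen with earlier results of these data known.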

Additional observations from a re-analysis of the deposited data

How the results depend on the processing

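Of 2384 member differences recomputed over 25 alternatives, 2282 kept their direction and their side of the threshold, 69 lost a call, 25 gained one and 8 changed sign. None of the 8 was called. They were Plaur 1371286_at at 2 h against 0.5 h (0.13 with the 2 doubtful arrays out, -0.27 to 0.13 over fits without 1 array) and in NBTII at 48 h (-0.024 with a replicate block, -0.0072 to 0.18 without 1 array), Plat in NBTII-FGFR1 at 48 h (-0.015 to 0.38, lowest without 0 h replicate 2), Serpine2 late against early in NBTII (-0.0017 without 24 h replicate 2, -0.041 to 0.21 over all such fits) and the Plaur 1387269_s_at interaction (-0.63 to 0.083, highest without NBTII-FGFR1 6 h replicate 2). Fitting only the arrays compared, which leaves fewer degrees of freedom, gave 0 members called at 2 h against 0.5 h, 4 in NBTII-FGFR1 at 48 h, 1 at 2 h, 0 at 6 h and 1 at 48 h in NBTII, and 0 between lines early. Array weights gave 4 in NBTII-FGFR1 at 48 h, where the cause was not tested. In both of these settings the calls added in NBTII-FGFR1 at 48 h were the 2 Plau probe sets, called lower. Leaving out 1 array gave 2 to 4 members in NBTII-FGFR1 at 48 h, 0 to 2 in NBTII at 48 h, and between lines 0 to 1 at 0 h, 1 to 4 early, 1 to 2 late and 0 to 1 in the interaction.

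Replicate numbers were not taken to pair the arrays, since the sign was mixed: deviations of same-numbered arrays correlated at -0.13 to 0.35 over 36 pairs of groups, 15 of them over 0.1 and 2 under -0.1, although Plat was higher in replicate 1 in 8 of 9 groups. With a replicate block 5 members were called between lines early, adding Plau 1387675_at (0.67, adjusted p = 0.0335) and Plat (-0.86, adjusted p = 0.0294), and Plat was called at 2 h against 0.5 h (1.13, adjusted p = 0.0482). The lone arrays of NBTII 0 h and of 0.5 h stayed in every fit, and Plaur 1371286_at has no value once probe sets below the median level are left out.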
